A study of Arabidopsis thaliana with 72 samples.

Results

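The Aux/IAA and ARF genes are the families through which a plant cell reads the hormone auxin, and their transcript levels in rosette leaves are described here across 24 groups of Arabidopsis thaliana. The families hold 44 listed loci, 29 Aux/IAA genes and 15 ARF genes, among the 37336 genes of the count table. The 37 members that reached 50 counts in 1 or more libraries, 22 Aux/IAA and 15 ARF genes, were analysed further. RNA-seq was carried out on leaves of 25-day-old plants in 72 libraries, 3 for each group. The parents were the accessions Ws, Ler and Col, and both crossing directions of each F1 hybrid were sampled (WsxLer and LerxWs in the Ws/Ler system, ColxLer and LerxCol in the Col/Ler system). Hybrid Mimics are F7 lines selected over generations for the large size of the F1, and they were 7 lines of Ws/Ler (WL_HM1 to WL_HM7) and 6 of Col/Ler (CL_HM1 to CL_HM6). The study leaves CL_HM5 and CL_HM6 out of its Hybrid Mimics, and they are kept apart here too. Small lines are F7 lines of the same crosses selected for small size (wl_sml1, wl_sml2, cl_sml1 and cl_sml2). Flowering time was a criterion in both selections. The study reports that large plants came to flower near the later parent, and small plants near the earlier parent or before it. Size class and flowering time can therefore not be told apart in comparisons of these lines. The labels name no transgene or treatment, and all groups grew on sugar-containing medium before transfer to soil. Leaves of 3 plants were pooled for each parental or F1 library, whereas each F7 library came from 1 plant, so the 3 libraries of a line are sister plants of 1 selected line.

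Aux/IAA proteins repress auxin-responsive genes by binding ARF transcription factors and recruiting TOPLESS corepressors. Auxin brings an Aux/IAA protein to the TIR1/AFB receptors through a short conserved stretch called the degron, after which the protein is destroyed and the ARF is released. Many Aux/IAA genes are themselves induced by auxin, and in leaves these families are known for roles in cell expansion, vein formation and the outline of the rosette.

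The degron separates the Aux/IAA genes into canonical members, which carry it, and non-canonical members, which lack it. Its core was searched in frame in the coding sequences of RefSeq's TAIR10.1 assembly as GGNTGGCCNCCN (N is any base), and it was found in 23 of 23 canonical genes and in 0 of 6 non-canonical genes. Of the 8 Aux/IAA genes described below as higher in the Hybrid Mimics of both systems, the windows of the 6 with the largest log2 difference in Ws/Ler are shown with the core in capitals, because the core is the part that marks these repressors for auxin-dependent removal.
IAA6: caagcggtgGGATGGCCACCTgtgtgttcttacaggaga
IAA19: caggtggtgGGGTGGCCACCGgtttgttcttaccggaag
IAA14: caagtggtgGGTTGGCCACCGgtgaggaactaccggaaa
IAA17: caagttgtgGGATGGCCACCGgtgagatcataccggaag
IAA3: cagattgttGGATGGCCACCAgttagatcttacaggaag
IAA29: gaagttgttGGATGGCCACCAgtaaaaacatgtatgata
The window of IAA6 lies on chromosome 1 at 19673314 to 19673352 (minus strand), that of IAA19 on chromosome 3 at 5264307 to 5264345 (plus), that of IAA14 on chromosome 4 at 8349469 to 8349507 (minus), that of IAA17 on chromosome 1 at 1136938 to 1136976 (plus), that of IAA3 on chromosome 1 at 1129010 to 1129048 (minus) and that of IAA29 on chromosome 4 at 15583942 to 15583980 (plus). Each window lies in 1 coding exon.

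Among the canonical genes, 22 of 23 passed the count minimum, and IAA15 was the exception with at most 5 counts in a library. Of the non-canonical genes 0 of 6 passed. Their highest count in any library was 21 for IAA30, 14 for IAA32, 13 for IAA34, 5 for IAA31, 4 for IAA20 and 3 for IAA33, so their differences could not be measured at this depth. All 15 ARF genes passed. The libraries held 17741358 (lowest), 20432113 (median) and 28527725 (highest) counted reads, and levels are given as CPM (counts per 1000000 counts of a library, after TMM scaling).

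Compared per kilobase of annotated exon, IAA8, a repressor with a long N-terminal region, had the highest level, with a median of 79.98 CPM per kb over the 72 libraries. ARF2, a repressor ARF known for its part in organ size and leaf ageing, followed with 75.71 CPM per kb, and IAA9 with 68.4 CPM per kb. The least abundant of the 37 were IAA6 with 2.301, IAA5 with 1.47 and IAA10 with 1.23 CPM per kb. The span between groups differed among members. The highest group mean was 16.8 times the lowest for IAA29, 9.89 times for IAA14, 7.49 times for IAA17 and 6.75 times for IAA19, against 1.51 times for IAA9 and 1.44 times for ARF1. Reads of IAA3, IAA5, IAA9, IAA10, IAA11, IAA13, IAA27, ARF1, ARF5 and ARF7 may be mixed with those of a gene on the other strand that overlaps them, since the strand setting of the counting is not stated in the sources used here.

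The largest differences in these families lay between Hybrid Mimics and small lines. Here the line was the replicate (the counts of its 3 plants were summed), which gave 7 lines against 2 in Ws/Ler and 4 against 2 in Col/Ler, and calls were made where the adjusted p did not pass 0.05. In Ws/Ler, 18 of 36 tested members were called, against 47.5% of all genes tested. Of these, 10 were higher in the Hybrid Mimics (23.8% of all genes) and 8 lower (23.7%). In Col/Ler, 14 of 36 were called (38.9%, against 31.3% of all genes), 11 higher (17.0%) and 3 lower (14.3%). IAA5 had too few counts in these plants to be tested. The total share of members called was close to that of the transcriptome in Ws/Ler. In Col/Ler it was above it, with a larger share higher and a smaller share lower than among all genes. No test of these shares was run, and the members are described for their direction and size.

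The same 11 members were called in the same direction in both systems, 9 higher and 2 lower in the Hybrid Mimics, which is 30.6% of the 36 against 19.4% of the 16980 genes tested in both. Of these 11, 9 are Aux/IAA genes (IAA3, IAA6, IAA7, IAA8, IAA14, IAA17, IAA19 and IAA29 higher, IAA26 lower) and 2 are ARF genes (ARF8 higher, ARF4 lower). No member was called in opposite directions, as were 107 of the 16980 genes, a share too small for the absence to describe these families. The median log2 difference of the Aux/IAA genes was 0.28 in Ws/Ler and 0.46 in Col/Ler, that of the ARF genes -0.21 and 0.00, and that of all genes -0.01 in both. These directions are relative to the TMM scaling. Scaled by library totals, the median of all genes moved to -0.22 in Ws/Ler and -0.26 in Col/Ler. The called members were then 6 higher and 13 lower in Ws/Ler and 9 higher and 9 lower in Col/Ler. With that scaling 13 members were called in the same direction in both systems. They were 8 of the 11, without IAA7, IAA29 and ARF8, and also IAA18, IAA28, ARF2, ARF9 and ARF17. With cl_sml1 left out, the Col/Ler calls fell to IAA3, IAA17 and IAA26.

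IAA6 (AT1G52830) is a low-abundance repressor related in sequence to IAA19 and known from light-grown seedlings and adventitious rooting. In Ws/Ler its level had a lowest, median and highest value of 0.846, 2.91 and 5.43 CPM over the 21 Hybrid Mimic plants and of 0, 0.149 and 0.326 CPM over the 6 small plants. In Col/Ler it was 1.26, 2.301 and 3.85 CPM over 12 Hybrid Mimic plants and 0.0965, 0.417 and 0.703 CPM over 6 small plants. Every Hybrid Mimic plant lay above every small plant in both systems. The log2 difference was 4.37 ± 0.52 (SE, adjusted p = 0.000268) in Ws/Ler and 2.52 ± 0.41 (adjusted p = 0.00963) in Col/Ler. The small lines' values rest on few reads, 7 counts summed over the plants of wl_sml1 and 13 over those of wl_sml2, with 22 for cl_sml1 and 37 for cl_sml2, so the size of the fold is loosely fixed. IAA6 reached the minimum of 50 counts through the Hybrid Mimic plants alone, with at most 8 counts in a small plant of Ws/Ler and 16 in one of Col/Ler, so its entry into the test depended on its level there, and the counts of called members above include it. With no filter its log2 difference was 4.36 and 2.51, called in both. IAA10, which reached the minimum through small plants alone, was called in neither system.

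IAA17 (AXR3, AT1G04250) and IAA14 (SLR, AT4G14550) are repressors whose stabilised forms make plants strongly insensitive to auxin. The level of IAA17 in Ws/Ler was 21.6, 41.6 and 55.3 CPM (lowest, median, highest) in Hybrid Mimic plants and 7.60, 9.15 and 10.6 CPM in small plants. The Col/Ler plants had 41.0, 52.5 and 67.2 CPM against 6.90, 11.9 and 19.6 CPM. Neither system showed any overlap of plants for IAA17. Its log2 difference was 2.13 ± 0.19 (adjusted p = 5.97e-05) in Ws/Ler and 2.14 ± 0.28 (adjusted p = 0.00572) in Col/Ler. The level of IAA14 was 12.6, 17.6 and 25.7 CPM in Ws/Ler Hybrid Mimic plants and 3.05, 4.32 and 7.03 CPM in small plants. Among Col/Ler plants the values were 8.68, 12.1 and 23.3 CPM against 1.83, 2.69 and 3.97 CPM. The plants of both classes were apart in IAA14 as well. This gave a log2 difference of 1.92 ± 0.23 (adjusted p = 0.000245) in Ws/Ler and 2.18 ± 0.27 (adjusted p = 0.00521) in Col/Ler.

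IAA3 (SHY2, AT1G04240), a repressor known from light signalling and root meristem size, and IAA8 (AT2G22670) kept the plants of both classes apart too. The level of IAA3 was 6.40, 12.6 and 19.6 CPM in Ws/Ler Hybrid Mimic plants and 3.34, 4.79 and 5.44 CPM in small plants. For Col/Ler the level was 9.02, 12.5 and 13.96 CPM against 3.04, 4.88 and 6.53 CPM. The difference of IAA3 was thus of similar size in both systems, at a log2 value of 1.49 ± 0.20 (adjusted p = 0.000536) and 1.34 ± 0.15 (adjusted p = 0.00436). The level of IAA8 was 130, 186 and 225 CPM in Ws/Ler Hybrid Mimic plants and 83.3, 100 and 114 CPM in small plants. In Col/Ler it was 126, 160 and 192 CPM against 71.8, 95.6 and 102 CPM. IAA8 was the member with the highest level per kilobase, and its log2 difference was 0.89 ± 0.11 (adjusted p = 0.000361) and 0.81 ± 0.13 (adjusted p = 0.00837).

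IAA19 (MSG2, AT3G15540) and IAA29 (AT4G32280) are repressors known from growth toward light and from shade responses, and both are induced by auxin. The level of IAA19 was 1.79, 9.03 and 13.2 CPM in Ws/Ler Hybrid Mimic plants and 1.65, 2.12 and 3.13 CPM in small plants. The Col/Ler plants had 4.02, 6.40 and 9.06 CPM against 1.36, 3.46 and 4.22 CPM. Single plants of IAA19 overlapped between the classes in both systems, while the line means did not. The fitted log2 difference was 1.95 ± 0.38 (adjusted p = 0.00304) and 1.05 ± 0.25 (adjusted p = 0.0273). The level of IAA29 was 1.501, 7.13 and 22.3 CPM in Ws/Ler Hybrid Mimic plants and 1.75, 1.85 and 2.92 CPM in small plants. Among Col/Ler plants the values were 2.81, 5.85 and 10.5 CPM against 0.704, 1.72 and 2.74 CPM. The Ws/Ler lines themselves were unlike in IAA29, with line means of 15.6 CPM in WL_HM5, 14.5 in WL_HM7 and 11.5 in WL_HM1 but 3.05 in WL_HM3 and 2.99 in WL_HM4. Its log2 difference was 2.04 ± 0.73 (adjusted p = 0.0439) in Ws/Ler, a call lost when WL_HM1, WL_HM2, WL_HM5, WL_HM6, WL_HM7, wl_sml1 or wl_sml2 was left out, and 1.76 ± 0.45 (adjusted p = 0.0315) in Col/Ler. That call was lost without CL_HM1, CL_HM2, CL_HM3 or cl_sml1.

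IAA7 (AXR2, AT3G23050) is a close relative of IAA14 and IAA17. Its level was 62.7, 99.3 and 158 CPM in Ws/Ler Hybrid Mimic plants and 33.8, 57.0 and 90.3 CPM in small plants. For Col/Ler the level was 77.3, 124 and 159 CPM against 40.9, 51.2 and 66.3 CPM. The plants of IAA7 overlapped in Ws/Ler and were apart in Col/Ler. This gave a log2 difference of 0.86 ± 0.27 (adjusted p = 0.0269) in Ws/Ler and 1.19 ± 0.25 (adjusted p = 0.0192) in Col/Ler. Without wl_sml2, the lower of the 2 small lines, the Ws/Ler difference of IAA7 was 0.45 and not called.

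**Figure D1:**
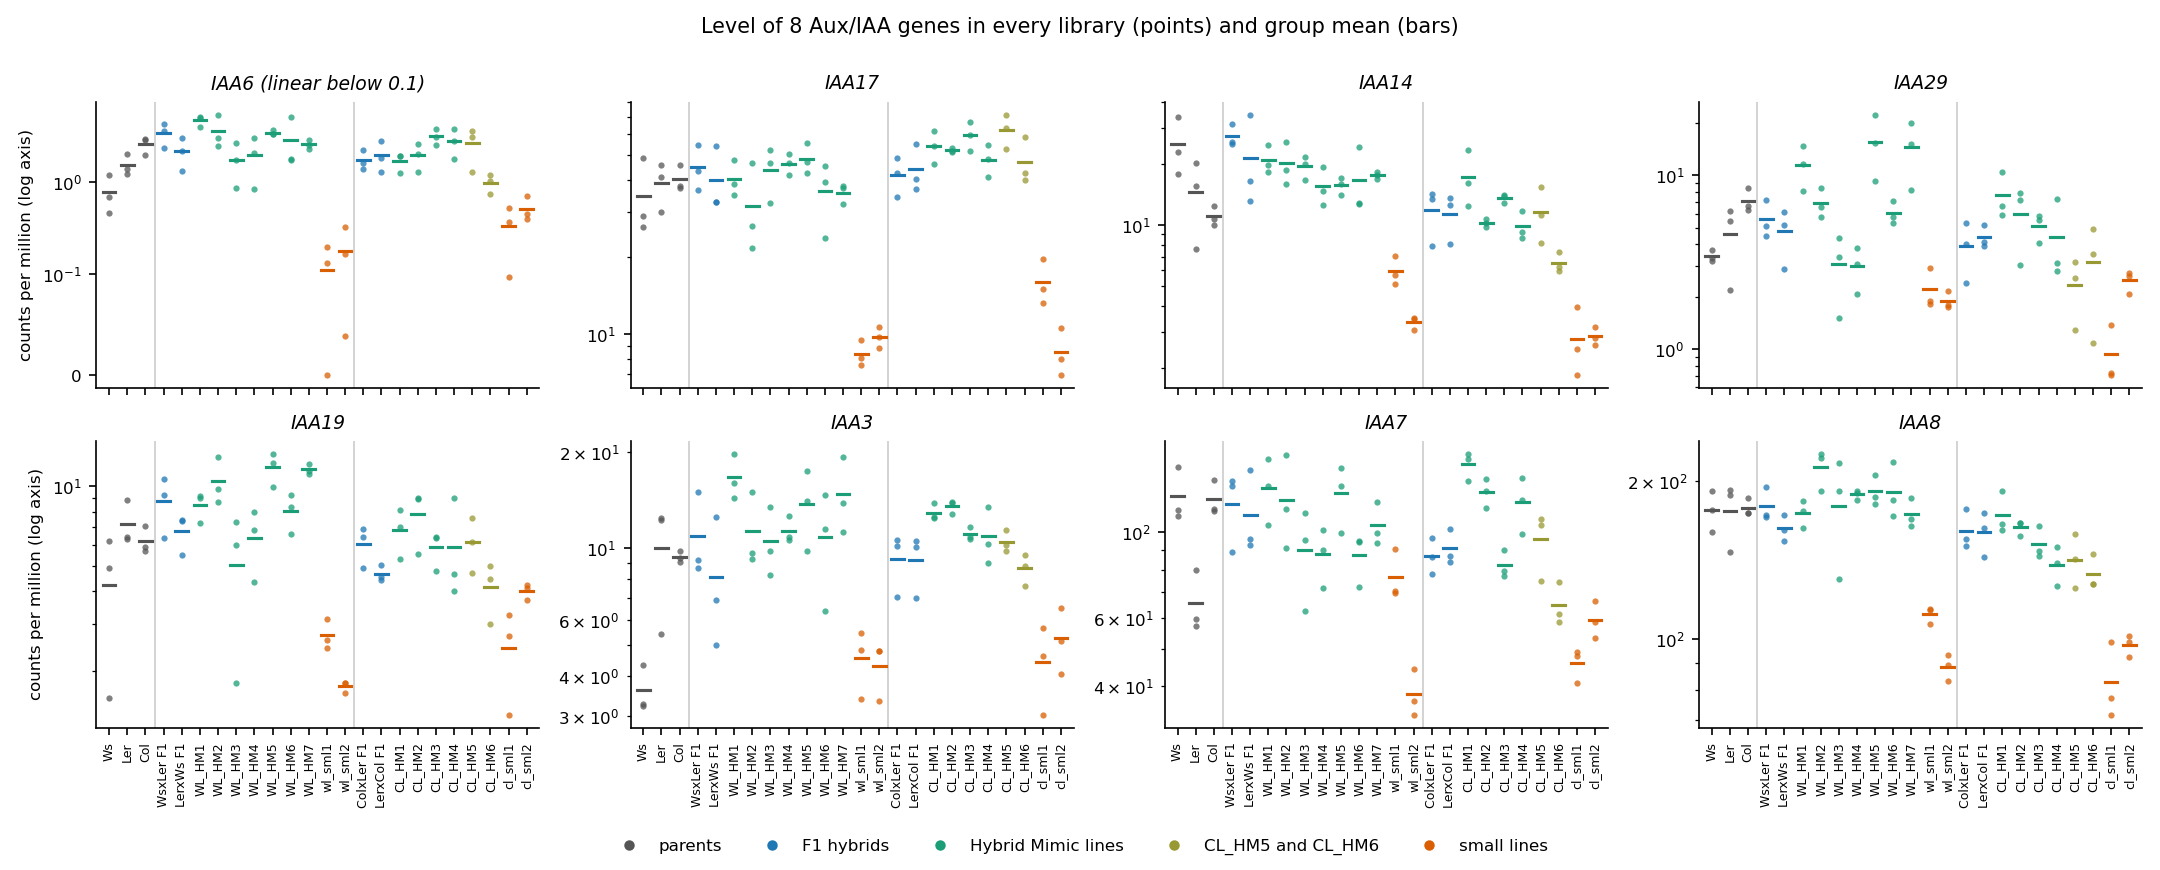
Level of 8 Aux/IAA genes in CPM (log axis, with the IAA6 axis linear below 0.1) in the 24 groups, with 1 point per library and a bar at the group mean. In every panel the means of the 2 small lines of a system lie below those of its Hybrid Mimic lines (WL_HM1 to WL_HM7, CL_HM1 to CL_HM4), and the IAA29 panel shows the spread of the Ws/Ler lines from 2.99 to 15.6 CPM.

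The upstream sequences of IAA19 and IAA6 are shown because both genes were higher in the Hybrid Mimics of both systems and IAA19 holds the most matches among them. In the 250 bases before the annotated start (TAIR10.1, sense strand, 5' to 3'), capitals mark TGTCTC or TGTCGG, elements that ARF proteins bind, and CACGTG, the G-box, each searched on both strands.
IAA19: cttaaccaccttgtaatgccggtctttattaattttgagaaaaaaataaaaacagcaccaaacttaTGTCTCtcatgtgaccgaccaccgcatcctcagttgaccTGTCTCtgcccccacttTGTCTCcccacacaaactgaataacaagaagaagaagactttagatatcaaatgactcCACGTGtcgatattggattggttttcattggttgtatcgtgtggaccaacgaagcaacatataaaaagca
IAA6: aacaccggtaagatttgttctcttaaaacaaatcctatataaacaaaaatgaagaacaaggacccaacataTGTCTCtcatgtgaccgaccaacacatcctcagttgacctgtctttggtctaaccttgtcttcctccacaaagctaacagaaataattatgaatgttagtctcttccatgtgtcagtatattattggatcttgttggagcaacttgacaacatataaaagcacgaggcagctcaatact
The IAA19 stretch (chromosome 3, 5263751 to 5264000, plus strand) holds 3 TGTCTC and 1 CACGTG, and the IAA6 stretch (chromosome 1, 19673653 to 19673902, minus strand) holds 1 TGTCTC. Upstream matches to TGTCTC or TGTCGG occurred in 13 of 29 Aux/IAA genes (44.8%) and 3 of 15 ARF genes, against 14.7% of 27443 protein-coding genes. Among the 8 Aux/IAA genes higher in the Hybrid Mimics of both systems 3 held a match, and among the 14 other detected Aux/IAA genes 6 did. A match is a description of the letters in this window only.

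IAA26 (PAP1, AT3G16500), like its relative IAA27 (PAP2) named as a phytochrome-associated protein, was the Aux/IAA gene that went the other way in both systems. Its level was 14.4, 23.1 and 32.4 CPM in Ws/Ler Hybrid Mimic plants and 25.1, 32.6 and 35.4 CPM in small plants. In Col/Ler it was 12.8, 19.2 and 24.9 CPM against 29.1, 34.99 and 43.7 CPM. Plants overlapped in Ws/Ler and were apart in Col/Ler. The log2 difference of IAA26 was -0.47 ± 0.11 (adjusted p = 0.00728) and -0.86 ± 0.11 (adjusted p = 0.00521).

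ARF4 (AT5G60450), a repressor ARF that helps to set the lower side of the leaf, was lower in the Hybrid Mimics as well. Its level was 28.9, 38.2 and 51.4 CPM in Ws/Ler Hybrid Mimic plants and 50.2, 55.8 and 60.0 CPM in small plants. The Col/Ler plants had 33.8, 39.4 and 43.8 CPM against 48.6, 50 and 54.3 CPM, with no overlap of plants. The log2 difference of ARF4 was -0.54 ± 0.08 (adjusted p = 0.000864) and -0.39 ± 0.10 (adjusted p = 0.0287). ARF8 (AT5G37020), an activator ARF known from flower and hypocotyl growth, was higher. Its level was 37.6, 48.0 and 74.2 CPM in Ws/Ler Hybrid Mimic plants and 32.0, 37.9 and 43.6 CPM in small plants. Among Col/Ler plants the values were 30.8, 46.6 and 55.2 CPM against 26.9, 31.6 and 35.1 CPM. Plants overlapped in both systems, and the log2 difference of ARF8 was 0.42 ± 0.13 (adjusted p = 0.027) and 0.58 ± 0.16 (adjusted p = 0.0375).

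**Figure D2:**
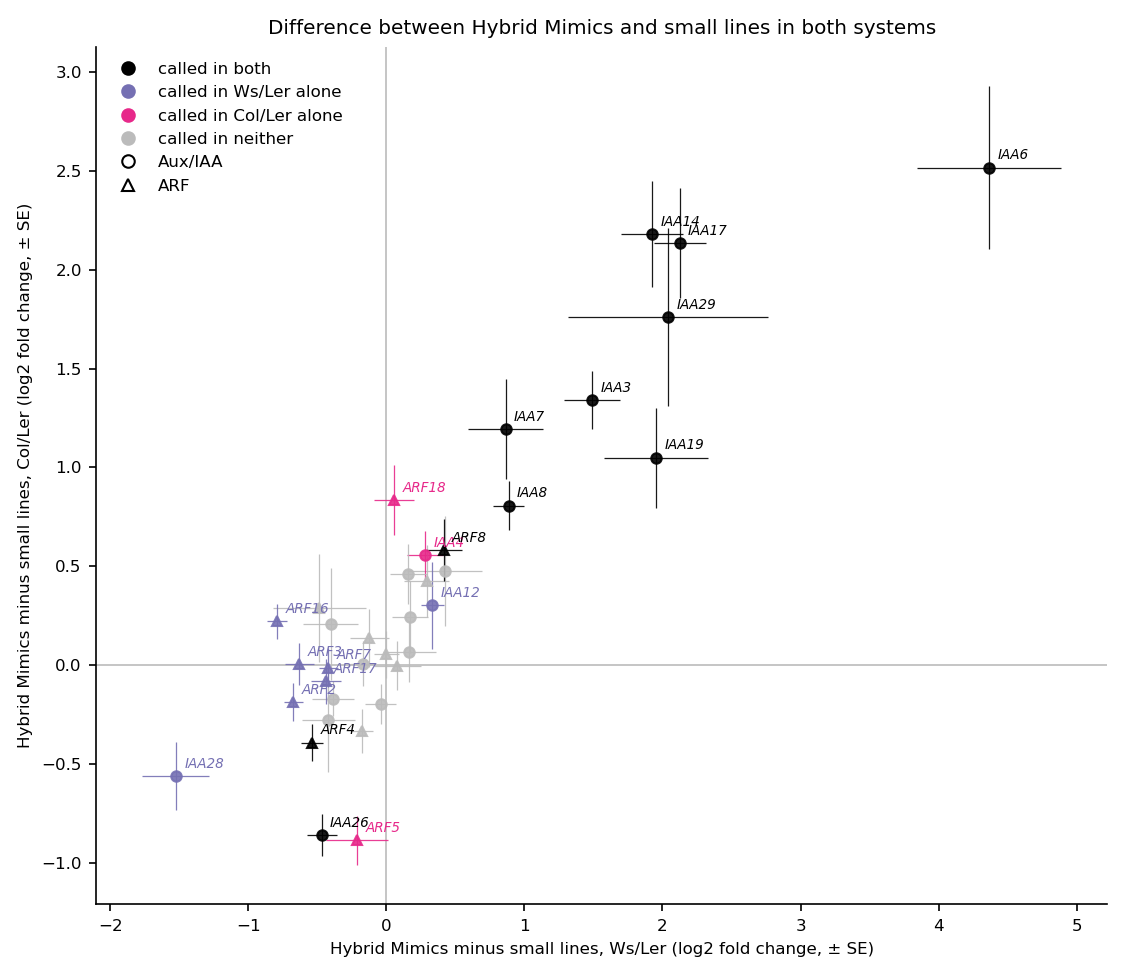
Log2 difference between Hybrid Mimics and small lines for the 36 tested members, Ws/Ler on the horizontal axis and Col/Ler on the vertical axis, with bars for the standard error. Black symbols are the 11 members called in both systems, circles are Aux/IAA and triangles ARF genes, and IAA6 lies farthest out at 4.37 and 2.52.

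A group of ARF genes was called in Ws/Ler alone under TMM scaling. These were ARF2, ARF3, ARF7, ARF16 and ARF17, all lower in the Hybrid Mimics. Scaled by library totals, ARF2 and ARF17 were called in both systems. The difference between the systems was tested in 1 fit over the 15 lines, in which 5 of 36 members were called (13.9%, against 10.5% of all genes). Those called were ARF2, ARF3, ARF7, ARF16 and ARF18, without ARF17. Without cl_sml1 that number was 1, ARF16. The level of ARF2 (AT5G62000) was 248, 283 and 343 CPM in Ws/Ler Hybrid Mimic plants and 410, 451 and 484 CPM in small plants. For Col/Ler the level was 252, 276 and 325 CPM against 262, 326 and 363 CPM. The small plants of Ws/Ler stood above all Hybrid Mimic plants, while those of Col/Ler overlapped them. The log2 difference of ARF2 was -0.67 ± 0.07 (adjusted p = 0.00011) in Ws/Ler and -0.19 (adjusted p = 0.182) in Col/Ler, and the difference between the systems was -0.49 (adjusted p = 0.0132).

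ARF16 (AT4G30080) is a repressor that microRNA miR160 cleaves, as it does ARF10 and ARF17, whereas miR167 acts on ARF6 and ARF8. The mature microRNAs are shown with the seed (bases 2 to 8) in capitals, and the target sites with the bases that do not pair in capitals (a G opposite U counted as unpaired), because they set ARF16 and ARF17 apart from the other ARF genes of the group.
miR160a: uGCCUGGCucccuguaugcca
ARF16 site: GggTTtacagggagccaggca
ARF17 site: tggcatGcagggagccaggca
ARF10 site: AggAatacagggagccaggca
miR167a: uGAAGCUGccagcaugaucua
ARF8 site: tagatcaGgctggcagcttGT
ARF6 site: GagatcaGgctggcagcttGT
The sites come from RefSeq's TAIR10.1 transcripts and lie in coding sequence. The ARF16 site had 3 unpaired bases, that of ARF17 1, that of ARF10 2, that of ARF8 3 and that of ARF6 4, and no other ARF gene had a stretch with fewer than 7. The level of ARF16 was 14.5, 21.9 and 26.0 CPM in Ws/Ler Hybrid Mimic plants and 35.2, 37.0 and 39.2 CPM in small plants. In Col/Ler it was 21.8, 26.0 and 30.2 CPM against 20.6, 21.8 and 25.3 CPM. Only the Ws/Ler small plants were set apart in ARF16. In Col/Ler the line means alone were apart, with the Hybrid Mimics above. The fitted log2 difference was -0.79 ± 0.07 (adjusted p = 7.23e-05) in Ws/Ler and 0.22 (adjusted p = 0.102) in Col/Ler, and the difference between the systems was -1.01 (adjusted p = 0.000174). Among the 5 it was the only one called in every alternative run. For ARF17 the log2 difference in Ws/Ler was -0.44 ± 0.11 (adjusted p = 0.0104), and that between the systems was -0.36 (adjusted p = 0.195). ARF10, the third target of miR160, was called in neither system.

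ARF3 (ETTIN, AT2G33860), which works beside ARF4 in leaf polarity, was at 32.1, 41.3 and 49.4 CPM in Ws/Ler Hybrid Mimic plants and 50.4, 64.2 and 71.4 CPM in small plants. In Col/Ler it was at 31.9, 39.2 and 44.1 CPM against 32.9, 38.7 and 45.2 CPM. The log2 difference of ARF3 was -0.63 ± 0.10 (adjusted p = 0.0013) in Ws/Ler and 0.00 in Col/Ler, and that between the systems -0.63 (adjusted p = 0.018). ARF7 (AT5G20730), an activator of tropic growth and lateral root formation, was at 36.2, 43.8 and 49.9 CPM in Ws/Ler Hybrid Mimic plants and 54.7, 58.0 and 60.5 CPM in small plants. Col/Ler plants were at 43.2, 53.5 and 62.2 CPM against 47.4, 54.5 and 62.4 CPM. As in ARF3, the Ws/Ler plants were apart and the Col/Ler plants overlapped. The log2 difference of ARF7 was -0.42 ± 0.07 (adjusted p = 0.00154) in Ws/Ler and -0.01 in Col/Ler, and that between the systems -0.41 (adjusted p = 0.0478). ARF18 showed the other pattern, at 6.24, 11.3 and 15.3 CPM against 9.24, 10.3 and 12.1 CPM in Ws/Ler. Col/Ler Hybrid Mimic plants were at 6.21, 9.33 and 12.3 CPM and small plants at 4.29, 5.58 and 6.45 CPM. Its log2 difference was 0.84 ± 0.18 (adjusted p = 0.019) in Col/Ler and 0.06 in Ws/Ler, and that between the systems -0.78 (adjusted p = 0.0439).

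Of the remaining calls, IAA28, a repressor known from lateral root initiation, was lower in the Ws/Ler Hybrid Mimics, with 3.23, 6.07 and 13.2 CPM against 12.8, 17.5 and 28.2 CPM. This gave a log2 difference of -1.52 ± 0.24 (adjusted p = 0.00117) in Ws/Ler and -0.56 (adjusted p = 0.0519) in Col/Ler. IAA12 (BODENLOS) was higher in the Ws/Ler Hybrid Mimics by a log2 value of 0.33 ± 0.08 (adjusted p = 0.0109), and IAA4 in those of Col/Ler by 0.56 ± 0.13 (adjusted p = 0.0226). ARF5 (MONOPTEROS), the activator needed for vein and embryo patterning, was lower in the Col/Ler Hybrid Mimics by -0.89 ± 0.13 (adjusted p = 0.00696). The small plants were uneven in ARF5, with 27.4, 9.12 and 15.0 CPM in cl_sml1 and 9.27, 30.3 and 9.89 CPM in cl_sml2, with 1 high plant in each line.

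**Figure D3:**
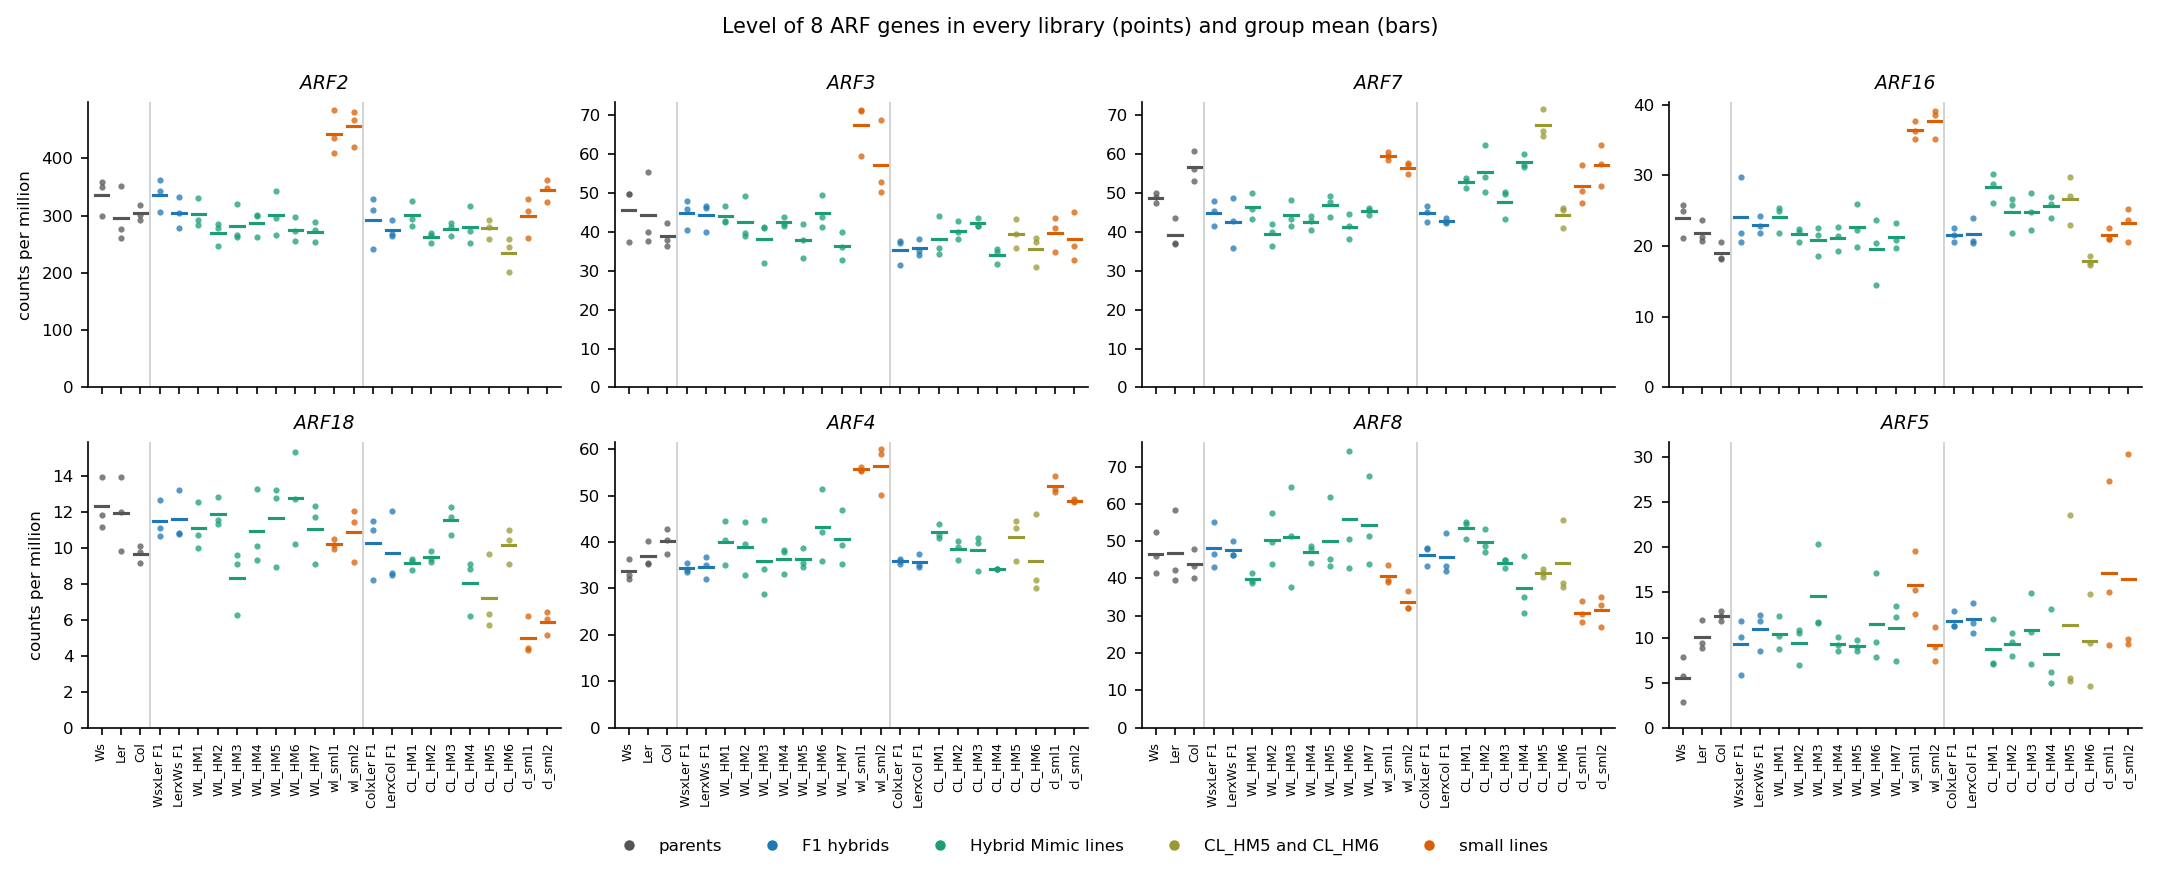
Level of 8 ARF genes in CPM (linear axis from 0) in the 24 groups, with 1 point per library and a bar at the group mean. In ARF2, ARF3, ARF7 and ARF16 the small lines of Ws/Ler lie above all Hybrid Mimic plants of that system, and those of Col/Ler overlap the Hybrid Mimic plants.

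Plants of a class were apart, with no overlap, for 9 of 36 members in each system, against 18.6% of all genes in Ws/Ler and 22.0% in Col/Ler. The line means were apart for 19 and 20 of 36, against 52.2% and 58.0% of all genes. IAA3, IAA6, IAA8, IAA14 and IAA17 had the plants apart in both systems. The share of all genes apart in both was not determined, so this list only describes the members.

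The small lines also differed from the Hybrid Mimics in the makeup of their leaf RNA. The summed level of 4 photosynthesis genes (RBCS1A, RCA, LHCB2.1 and CA1) was 22820 to 47440 CPM in Ws/Ler Hybrid Mimic plants and 13860 to 17100 CPM in small plants. The Col/Ler plants had 25060 to 42590 CPM against 10620 to 14530 CPM. Of these 4 genes, 3 were called higher in the Hybrid Mimics of Ws/Ler and 4 in those of Col/Ler. The summed level of 4 senescence and defence genes (SAG12, SAG13, PR1 and PR2) was 45.5 to 3019 CPM against 158 to 1183 CPM in Ws/Ler and 37.9 to 743 CPM against 854 to 2506 CPM in Col/Ler, where PR1 was called lower in the Hybrid Mimics. Root markers summed to at most 0.541 CPM in any plant, shoot meristem markers to at most 8.90 CPM and flower markers to at most 19.4 CPM. Of the flower markers, SEP3 was called lower in the Ws/Ler Hybrid Mimics. The others were not called there and had no common direction, with log2 differences of 1.72 for AG, 1.28 for AP3 and -0.62 for PI. The part of these markers in the differences of the auxin genes was not tested. In such bulk leaf samples, fewer cells of a type and less RNA per cell cannot be told apart.

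Each F7 line and F1 was also compared with the mid-parent value (MPV), built here as 3 in-silico libraries per system from the counts of both parents. All lines of a system share these 3 libraries, and Ler enters the MPV of both systems, so the comparisons are not independent. In the Ws/Ler small lines, 13 of 37 members were called in the same direction in both lines (35.1%, against 25.0% of all genes), 8 lower (13.2% of all genes) and 5 higher (11.8%). The 8 lower ones were all Aux/IAA genes (IAA1, IAA2, IAA6, IAA8, IAA12, IAA14, IAA17 and IAA19), and the 5 higher ones all ARF genes (ARF2, ARF3, ARF4, ARF7 and ARF16). In the Col/Ler small lines, 18 of 37 were called (48.6%, against 39.9%), 16 lower (21.9% of all genes) and 2 higher (18.0%). The lower ones were 12 Aux/IAA genes (IAA1, IAA3, IAA4, IAA6, IAA7, IAA8, IAA13, IAA14, IAA16, IAA17, IAA19 and IAA29) with ARF8, ARF11, ARF18 and ARF19, and the higher ones were ARF4 and ARF9. Scaled by library totals, the counts were 9 higher and 7 lower in Ws/Ler and 7 higher and 9 lower in Col/Ler, so the split between directions depends on the scaling.

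The levels of IAA17, IAA14 and ARF16 were set against the MPV in both systems. IAA17 had 34.9, 35.8 and 39.4 CPM in the Ws/Ler MPV libraries and 33.8, 41.4 and 43.4 CPM in those of Col/Ler. Against these, IAA17 had a log2 difference of -2.10 (adjusted p = 1.62e-07) in wl_sml1, -1.88 (adjusted p = 6.66e-07) in wl_sml2, -1.31 (adjusted p = 2.01e-06) in cl_sml1 and -2.22 (adjusted p = 2.12e-09) in cl_sml2. In the 7 Ws/Ler Hybrid Mimic lines it lay between -0.20 and 0.41 and was called in none of them. In the Col/Ler Hybrid Mimic lines IAA17 had a median log2 difference of 0.43 and was called higher in 1 of 4, CL_HM3 (adjusted p = 0.0105), and it was also called higher in CL_HM5 (adjusted p = 0.00828). IAA14 was -2.52 to -1.69 from the MPV on the log2 scale in the 4 small lines and lay between -0.32 and 0.10 in the Ws/Ler Hybrid Mimic lines and between -0.36 and 0.44 in CL_HM1 to CL_HM4, none of them called. CL_HM6 was called lower in IAA14, at -0.95. ARF16 was 0.69 higher in wl_sml1 and 0.74 higher in wl_sml2 on the log2 scale, with adjusted p of 0.000135 and 4.56e-05, and no Ws/Ler Hybrid Mimic line was called. In Col/Ler the calls of ARF16 lay in the other class, with 4 of 4 Hybrid Mimic lines higher (median log2 difference 0.31) and 0 of 2 small lines called (0.07 in cl_sml1 and 0.18 in cl_sml2).

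The Hybrid Mimics were compared with the MPV by a majority of lines. In Ws/Ler, 4 of 37 members were called in the same direction in at least 4 of 7 lines (10.8%, against 15.2% of all genes), IAA6 higher (5.85% of all genes) and IAA1, IAA2 and ARF17 lower (9.38%). In Col/Ler, 2 of 37 were called in at least 3 of 4 lines (5.41%, against 7.68%), IAA7 and ARF16, both higher (3.38% of all genes were called higher and 4.30% lower). IAA6, which was lower in all 4 small lines, was higher in 4 Ws/Ler Hybrid Mimic lines, with log2 differences of 2.01 in WL_HM1, 1.64 in WL_HM2, 1.57 in WL_HM5 and 1.31 in WL_HM6. IAA29 was called higher in WL_HM1, WL_HM5 and WL_HM7, by 1.53, 1.98 and 1.87, and IAA19 in WL_HM2, WL_HM5 and WL_HM7, by 0.88, 1.05 and 1.02. IAA1 was lower in WL_HM3, WL_HM4, WL_HM6 and WL_HM7, and also in all 4 small lines. These numbers fell to 1 in both systems when an MPV library was left out, replicate 2 or 3 in Ws/Ler and any of the 3 in Col/Ler. In Ws/Ler they fell to 1 or 2 without 1 plant of any of the 7 lines as well, and in Col/Ler to 1 without CL_HM2 replicate 3. The call of IAA6 was lost in 19 of 31 alternatives, that of IAA2 in 16 of 32 and that of IAA1 in 14 of 32, whereas ARF17 kept it in all 32. In Col/Ler the call of IAA7 was lost in 5 of 23 and that of ARF16 in 2 of 23. ARF16 was higher in CL_HM1 to CL_HM4 by 0.28 to 0.47 on the log2 scale.

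CL_HM5 and CL_HM6 shared 5 of 37 calls against the MPV (against 7.02% of all genes), all lower, IAA1, IAA8, IAA16, ARF17 and ARF19, a number that was 1 to 3 when MPV replicate 2 or 3 or any 1 plant of CL_HM5 was left out. In IAA17 both stayed high, at 39.8 to 71.5 CPM over their 6 plants, above the 6.90 to 19.6 CPM of the Col/Ler small plants. In IAA14 they lay at 5.95 to 15.4 CPM, also above the small plants, and in IAA29 at 1.08 to 4.89 CPM, overlapping the small plants.

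**Figure D4:**
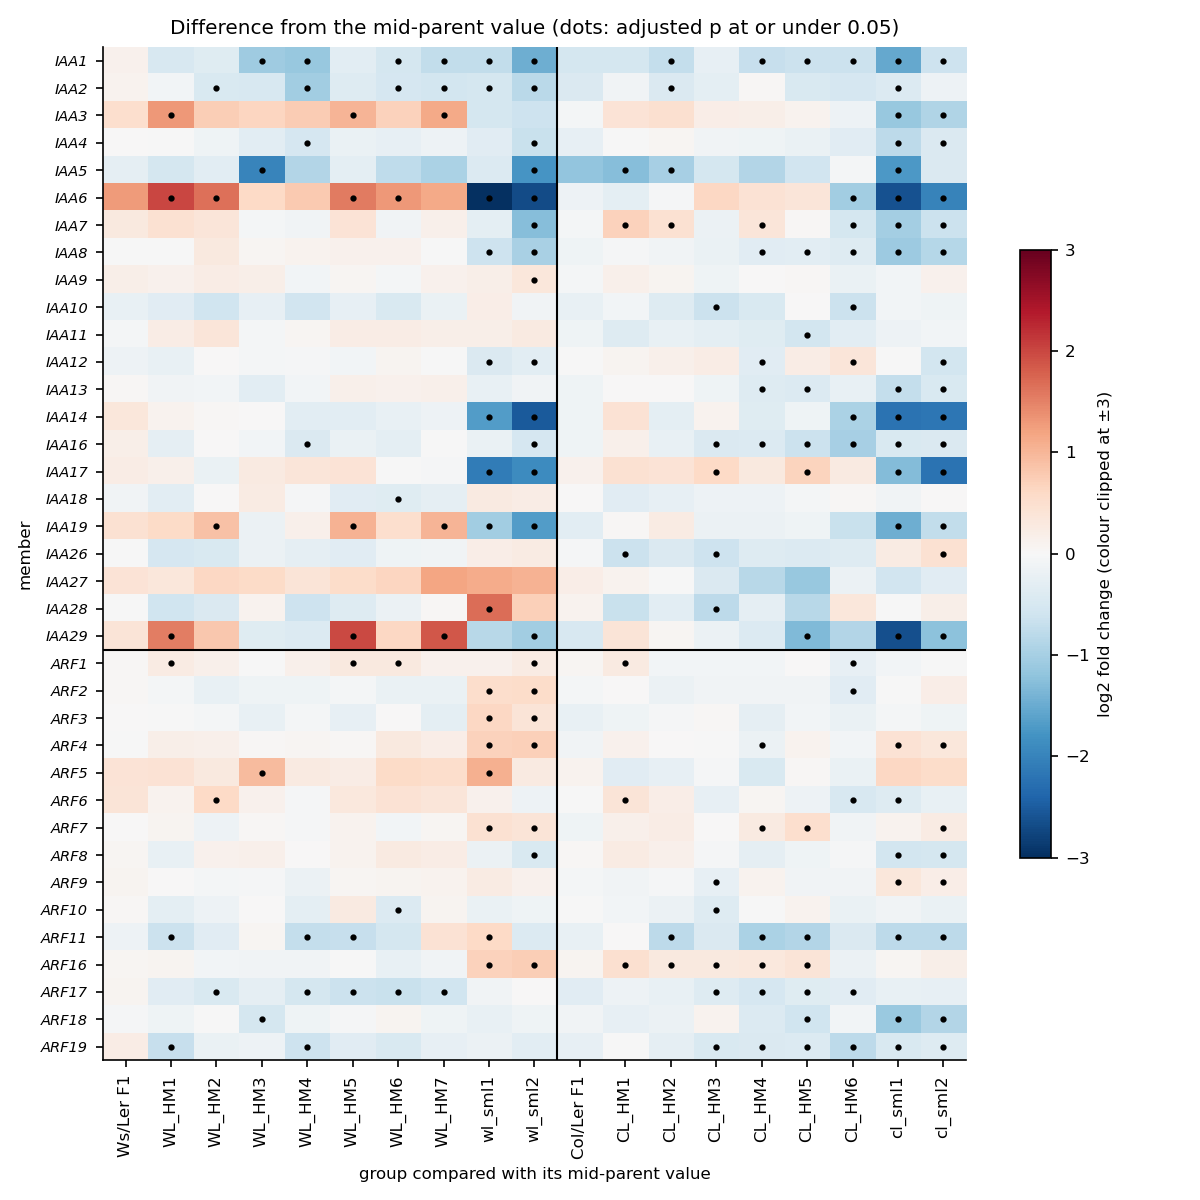
Log2 difference of the 37 members from the mid-parent value of their system in the F1, the Hybrid Mimic lines and the small lines (colour, clipped at ±3), with a dot where the adjusted p does not pass 0.05. The columns of the small lines hold most of the deep blue cells, in IAA6, IAA14, IAA17 and IAA29, while the F1 columns hold no dot.

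In the F1 hybrids no member was called against the MPV. The edgeR test called 0 of 37 in Ws/Ler (0.281% of all genes were called) and 0 of 37 in Col/Ler (0.407%). At an unadjusted p under 0.05 there were 2 members in Ws/Ler (against 8.87% of all genes) and 7 in Col/Ler (against 7.14%), and DESeq2 called 0 and 2. The nearest to the threshold was IAA5, an auxin-induced repressor, in Col/Ler. Its level was 0.720, 0.823 and 1.16 CPM in ColxLer and 0.572, 0.487 and 0.949 CPM in LerxCol, against 1.68, 1.74 and 1.95 CPM in the MPV libraries. All 6 hybrid libraries of IAA5 lay below the 3 MPV libraries, with a log2 difference of -1.18 (adjusted p = 0.0517). In Ws/Ler IAA6 had a log2 difference of 1.27 (adjusted p = 0.276), with 1.32 to 4.29 CPM in the hybrids and 0.848 to 1.36 CPM in the MPV. The median log2 difference of the members was 0.06 in Ws/Ler, with 26 of 37 above 0, and -0.10 in Col/Ler, with 8 of 37 above 0, against medians of 0.01 and 0.00 for all genes.

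The parents differed in a few members. Reads of all accessions were aligned to the TAIR10 reference, and the effect of sequence differences between accessions on the counts was not tested. The same limit applies to the hybrids and lines that carry their alleles. Between Ws and Ler, 6 of 37 were called (16.2%, against 20.7% of all genes), between Col and Ler 7 (18.9%, against 14.4%) and between Ws and Col 12 (32.4%, against 24.1%). The Ws and Ler number was 10 when Ler replicate 3 was left out. Dropping any 1 Col library, or Ler replicate 2 or 3, lowered the Col and Ler number to between 2 and 4, and dropping any 1 Col library or Ws replicate 1 or 2 lowered the Ws and Col number to between 4 and 8. IAA7 and ARF11 were the members called against Ler in both. The level of IAA7 was 110, 148 and 114 CPM in Ws, 113, 115 and 137 CPM in Col and 59.7, 80.0 and 57.3 CPM in Ler. The Ler libraries lay below all others, with a log2 difference of 0.91 ± 0.17 (adjusted p = 0.00505) for Ws over Ler and 0.88 ± 0.17 (adjusted p = 0.00687) for Col over Ler. ARF11, a close relative of ARF9 and ARF18, was higher in Ler, with 10.6 to 12.9 CPM in Ws, 13.4 to 18.8 CPM in Col and 18.3, 29.4 and 33.5 CPM in Ler. The fitted log2 difference was -1.17 ± 0.22 (adjusted p = 0.00499) for Ws and -0.76 ± 0.21 (adjusted p = 0.0414) for Col, each against Ler. The call of ARF11 between Col and Ler was lost in 7 of 14 alternatives, and that of IAA7 in 0 of 14.

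IAA3 was low in Ws, with 3.24, 4.35 and 3.28 CPM, against 5.41, 12.4 and 12.3 CPM in Ler and 9.32, 9.09 and 9.79 CPM in Col. The Ws libraries lay below all the others, and the log2 difference from Ler was -1.48 ± 0.29 (adjusted p = 0.00693). IAA27 (PAP2) was low in Ws too, with 9.06, 7.67 and 12.6 CPM, against 38.4, 27.3 and 12.2 CPM in Ler and 37.7, 31.9 and 26.8 CPM in Col. The Ler libraries spread widely in IAA27, and 1 of them reached the level of Ws. Its log2 difference from Ler was -1.41 ± 0.37 (adjusted p = 0.0245), and without replicate 1 of Ler it was -1.01 and not called. ARF6, an activator that works beside ARF8, was at 51.9 to 59.3 CPM in Ws against 81.1 to 99.8 CPM in Ler, a log2 difference of -0.74 ± 0.11 (adjusted p = 0.00174), and ARF10 was higher in Ws by 0.74 ± 0.14 (adjusted p = 0.00496).

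Between Col and Ler, IAA5 and IAA1, both early auxin-induced repressors, were low in Col. IAA5 was at 1.37, 0.731 and 1.16 CPM in Col and 1.99, 2.74 and 2.74 CPM in Ler, a log2 difference of -1.20 ± 0.32 (adjusted p = 0.0327). IAA1 was at 8.71, 7.26 and 12.3 CPM in Col and 11.7, 18.9 and 20.9 CPM in Ler, a log2 difference of -0.87 ± 0.24 (adjusted p = 0.037). The Col and Ler libraries of IAA5 did not overlap, and the highest Col library of IAA1 passed the lowest of Ler. The call of IAA5 was lost in 6 of 13 alternatives and that of IAA1 in 6 of 14. The other calls were ARF17 at -0.84, IAA12 at -0.42 and ARF7 at 0.52 on the log2 scale.

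**Figure D5:**
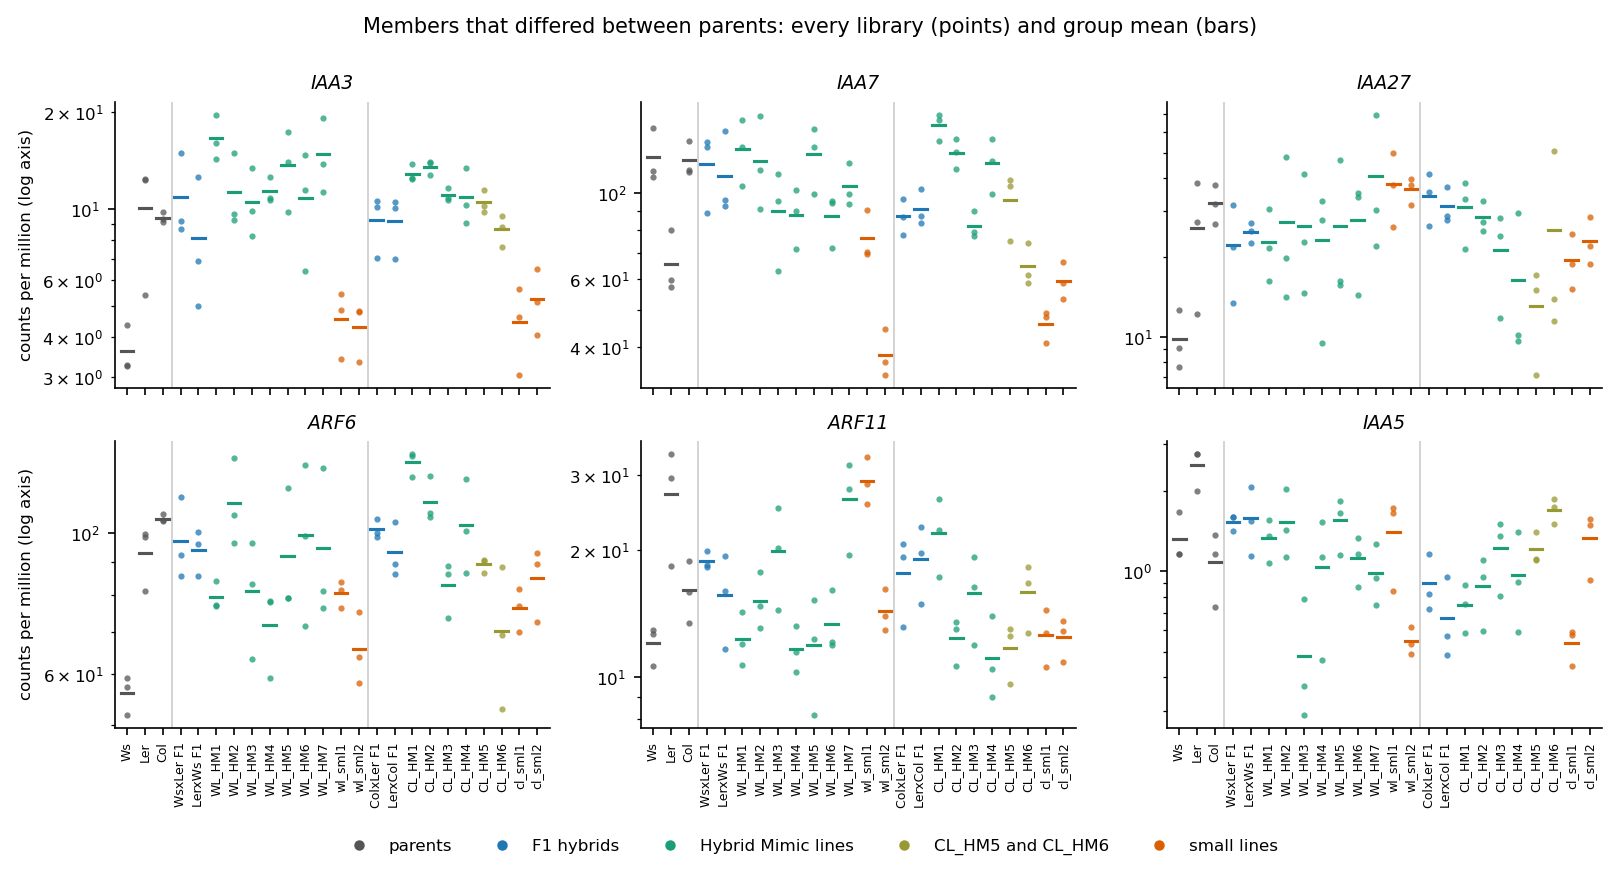
Level of 6 members that differed between parents, in CPM (log axis) in the 24 groups, with 1 point per library and a bar at the group mean. Ws is lowest among the parents in IAA3, IAA27 and ARF6, and Ler is lowest in IAA7 and highest in ARF11 and IAA5.

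The other genes of the auxin pathway were taken as a list of 44, with synthesis, conjugation, transport, receptor and TOPLESS genes. Between Hybrid Mimics and small lines, 12 of 33 tested were higher (against 23.8% of all genes) and 7 lower (23.7%) in Ws/Ler, and 9 of 29 higher (17.0%) and 5 lower (14.3%) in Col/Ler. In Ws/Ler, 4 of the 12 (DAO2, YUC2, YUC8 and YUC9) reached the count minimum through Hybrid Mimic plants alone. Of the transport genes, 5 of 8 tested were called in each system, all higher. PIN3, an auxin efflux carrier, was at 83.3, 113 and 132 CPM in Ws/Ler Hybrid Mimic plants and 50.1, 52.4 and 61.1 CPM in small plants, and at 60.0, 100 and 121 CPM against 37.8, 40.6 and 48.9 CPM in Col/Ler. No small plant reached a Hybrid Mimic plant in PIN3, and its log2 difference was 1.04 ± 0.10 (adjusted p = 8.2e-05) and 1.25 ± 0.18 (adjusted p = 0.00735). LAX1, an influx carrier, was higher by 0.91 ± 0.15 (adjusted p = 0.00158) and 0.89 ± 0.10 (adjusted p = 0.00443).

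Of the conjugation genes, GH3.2 was lower in the Hybrid Mimics of both systems. It encodes an enzyme that ties auxin to amino acids and is induced by auxin. Its level was 0.170, 0.423 and 10.99 CPM against 2.19, 3.78 and 19.1 CPM in Ws/Ler, and 0.194, 0.637 and 5.18 CPM against 2.83, 12.2 and 65.3 CPM in Col/Ler. Plants overlapped in both, and the log2 difference of GH3.2 was -2.89 ± 0.95 (adjusted p = 0.0337) and -4.27 ± 0.65 (adjusted p = 0.00805). GH3.3 was lower in Col/Ler by -3.25 ± 0.57 (adjusted p = 0.0117). GH3.9 was higher in both, by 2.68 ± 0.42 (adjusted p = 0.00106) and 1.22 ± 0.30 (adjusted p = 0.0281).

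Of the synthesis genes, 6 of 14 had enough counts in Ws/Ler, of which 4 were called higher and 2 lower. As YUC2, YUC8 and YUC9 were tested only through their level in the Hybrid Mimics, these numbers carry no weight of their own. YUC8, which makes auxin in shade and heat, was at 0.923, 2.06 and 3.13 CPM in Hybrid Mimic plants and 0.115, 0.239 and 0.440 CPM in small plants. The log2 difference was 2.97, given as a size only. With at most 10 counts in a small plant, the size of that fold is loosely fixed too. YUC9 was higher by 2.502 and YUC2 by 1.45, sizes that rest on the same entry through the Hybrid Mimics. TAR2 was higher by 1.05, whereas TAA1 was lower by -0.72 and YUC6 by -0.54. In Col/Ler, 3 of 14 were tested, and TAR2 was higher by 1.03 ± 0.13 (adjusted p = 0.00571) and YUC6 lower by -0.97 ± 0.16 (adjusted p = 0.00935). Among the 6 receptors, AFB1 was higher in both systems, by 1.08 ± 0.24 (adjusted p = 0.00624) and 1.28 ± 0.29 (adjusted p = 0.0216), AFB3 and AFB5 were lower in Ws/Ler, and in Col/Ler TIR1 was higher and AFB4 lower. Of the 5 TOPLESS corepressor genes, TPR2 and TPR3 were lower in the Ws/Ler Hybrid Mimics, by -0.68 and -0.63, and none was called in Col/Ler.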

How the data were processed

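The authors aligned reads with STAR 2.5.3a to TAIR10 and deposited un-normalized raw counts for every gene. All 72 columns were used. Parents, F1, lines and small lines were grouped by GEO's labels. The whole table was tested for genes that reached 50 counts in 1 or more libraries of the fit, with edgeR 4.0.16 (TMM, quasi-likelihood F test, R 4.3.3), with Benjamini-Hochberg adjustment and calls at 0.05. Standard errors come from the fold change and F statistic. MPV libraries sum parental libraries of the same replicate number after scaling to a common size. Hybrid Mimics and small lines were compared with lines as replicates. Members are on TAIR10.1 by locus identifier, and sequences are RefSeq's.

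The members and gene lists were chosen with earlier results of these data known. Values by library (lowest, median and highest for groups over 5) are given for members called in the same direction in both systems or among the 3 largest calls of a parental or Hybrid Mimic contrast. IAA28, ARF2, ARF3, ARF5, ARF6, ARF7, ARF16 and ARF18 were added after their values were seen. Other members are named by call. The scripts were tested on simulated data. Alternatives were DESeq2 1.42.0, other scaling, filters, thresholds, MPV and replicate units, a replicate block and leaving out libraries or lines. The study describes 3 biological replicates per line, each a separate pool of 3 plants for parents and F1. It does not say whether replicates were grown at separate times, so p-values measure the spread between these samples. Against the MPV that spread is taken over unlike libraries, namely sums of parental libraries, pools of 3 plants and single sister plants of a line.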

Additional observations from a re-analysis of the deposited data

Results flagged for a closer look

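IAA27 had a line mean of 40.7 CPM in WL_HM7, far from the other 6 Ws/Ler Hybrid Mimic lines, whose means lay between 22.8 and 27.8 CPM. The gap was 0.722 of the whole range. The plants of WL_HM7 were at 69.6, 30.2 and 22.2 CPM, so the mean rests on 1 plant. Among 60 sets of values examined for 15 members, chance alone sets a library or line apart in about 1 of 20.

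The difference between Hybrid Mimics and small lines was unequal in the 2 systems, Ws/Ler minus Col/Ler on the log2 scale by edgeR's quasi-likelihood test, for ARF2 (-0.49), ARF3 (-0.63), ARF7 (-0.41), ARF16 (-1.01) and ARF18 (-0.78). In ARF2, ARF3, ARF7 and ARF16 the plants of both classes were apart in Ws/Ler and overlapped in Col/Ler. The line means of ARF16 were apart in both systems, in opposite directions. In ARF18 the plants overlapped in both systems, and the line means were apart in Col/Ler alone. ARF7 and ARF18 lost the call in 16 of 23 alternatives each, ARF3 in 3 and ARF2 in 2, while ARF16 kept it in all.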

How the results depend on the processing

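No call of a member reversed in 1718 values under alternatives, and 263 lost the call. The calls that held in every alternative run were 12 of 18 for Hybrid Mimics against small lines in Ws/Ler (IAA3, IAA6, IAA8, IAA14, IAA17, IAA19, IAA28, ARF2, ARF3, ARF4, ARF7 and ARF16), 3 of 14 in Col/Ler (IAA3, IAA17 and IAA26), 5 of 6 for Ws against Ler, 2 of 7 for Col against Ler, 4 of 12 for Ws against Col, 1 of 5 for the difference between the systems and, against the MPV, 1 of 4 and 0 of 2 for the Ws/Ler and Col/Ler Hybrid Mimics, 10 of 13 and 10 of 18 for the small lines and 1 of 5 for CL_HM5 and CL_HM6. With 2 small lines a system, the Col/Ler calls depend on cl_sml1.

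The number of members called changed as follows, and the cause was not tested. At an unadjusted p it was 14 for Ws against Ler (6 otherwise), where 37% of all genes passed. It was 2 for the Ws/Ler F1 (8.87% of all genes) and 7 for the Col/Ler F1 (7.14%), each 0 otherwise. For the difference between the systems it was 10 (5 otherwise), where 25.6% of all genes passed. Against the MPV it was 9 for the Hybrid Mimics of Ws/Ler (4 otherwise), 9 for those of Col/Ler (2 otherwise) and 10 for CL_HM5 and CL_HM6 (5 otherwise). For these last and the settings below no share over all genes is given, so the numbers describe the members only. With a log-scale MPV it was 1 for the Ws/Ler F1, 2 for the Col/Ler F1 and 4 for the Col/Ler Hybrid Mimics, and DESeq2 called 2 in the Col/Ler F1. With DESeq2's size factors it was 2 for the Ws/Ler Hybrid Mimics against the MPV and 3 for the difference between the systems. Without a filter it was 1, and 3 for CL_HM5 and CL_HM6 and for the difference between the systems, and with library totals 3 for both of these. With single plants as replicates it was 26 for Hybrid Mimics against small lines in both systems and 11 for the difference between the systems, and with CL_HM5 and CL_HM6 among the Hybrid Mimics the last was 3. For Col against Ler it was 4 in a fit of those groups alone.

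With 1 library or line left out, the number called ran from 5 to 10 for Ws against Ler (10 without Ler replicate 3), from 2 to 6 for Col against Ler (2 without Col replicate 1), from 4 to 11 for Ws against Col (4 without Col replicate 2), 0 for the Ws/Ler F1, 0 to 1 for the Col/Ler F1, 1 to 4 and 1 to 3 for the Ws/Ler and Col/Ler Hybrid Mimics, 11 to 13 and 15 to 18 for the small lines, and 1 to 6 for CL_HM5 and CL_HM6, all against the MPV. It ran from 13 to 19 and from 3 to 17 for Hybrid Mimics against small lines in Ws/Ler and Col/Ler (3 without cl_sml1, 8 without cl_sml2 or CL_HM2), and from 1 to 5 for the difference between the systems (1 without cl_sml1).

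Libraries of the same replicate number did not deviate together (median correlation -0.0636 among parents, 0.0689 in Ws/Ler, 0.000103 in Col/Ler), so they share only a number. With the number as a replicate block, the counts were 5 for Ws against Ler, 3 for Col against Ler, 9 for Ws against Col, 0 for both F1, 3 and 2 for the Hybrid Mimics, 15 and 18 for the small lines and 4 for CL_HM5 and CL_HM6. No paired analysis was possible for Hybrid Mimics against small lines because lines were the replicates. Low counts limit IAA5, IAA6, IAA10 and the non-canonical genes.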

Other observations

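Some members that differ between Hybrid Mimics and small lines have another member as a neighbour on the chromosome, transcribed away from them. On chromosome 1, IAA3 and IAA17 start 6389 bases apart and were both higher in the Hybrid Mimics of both systems. On chromosome 4, IAA14 and IAA1 start 10733 bases apart, and IAA14 was called in both systems and IAA1 in neither. On chromosome 3, IAA2 and IAA7 start 12511 bases apart, and IAA7 was called in both and IAA2 in neither. Positions are those of the TAIR10.1 annotation, and no test of neighbourhood was run.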
